A study of Mus musculus with 12 samples.

Results

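Sgk1, Fkbp5, Klf9 and Nfkbia are genes whose transcription is known to be raised by glucocorticoids, and they are described here as a group of 4 in mouse kidney cortex. They were chosen by name from earlier results of the same arrays, in which values of the menopausal samples stood out, so differences among the menopausal samples are given as a description with no test. They are 4 of the 6786 genes that have a probe with 1 gene symbol on the array, and all 4 are among the 4482 genes above background. Each had 1 probe, spotted as 2 copies, among 15600 probes, of which 7777 exceeded their local background.

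The menopausal samples were 3 numbered kidney cortex samples of mice treated with VCD, letters that in mouse work on menopause commonly mean vinylcyclohexene diepoxide, which destroys ovarian follicles. The control samples were 3 numbered kidney cortex samples for which the labels give no agent. The sources used here do not give strain, sex, age, dose, time after treatment or whether a sample was 1 animal or a pool. A p-value between the groups therefore reflects the spread of these 6 samples, which may be technical in part. Each of the 12 arrays in 2 colours held a pair of cortex samples, each sample was on 4 arrays, 2 with each dye, and 6 arrays paired a menopausal with a control sample. Values below are log2 levels relative to the mean of the 6 samples, computed for each gene from its 12 array ratios, and cannot be compared between genes.

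Glucocorticoids enter the cell and bind the glucocorticoid receptor, which is held in the cytoplasm by a chaperone complex, moves to the nucleus and binds short palindromic DNA elements near its target genes. Sgk1 encodes a kinase that raises sodium transport in the distal tubule and is also induced by aldosterone. Fkbp5 encodes a co-chaperone that lowers the receptor's affinity for hormone, Klf9 a zinc-finger transcription factor, and Nfkbia the inhibitor that holds NF-kappaB in the cytoplasm. Other stimuli also act on these genes: osmotic stress on Sgk1, thyroid hormone on Klf9, and NF-kappaB itself on Nfkbia.

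The sequence before the transcription start is shown for 3 of the genes. It was searched for the receptor's own element and, since NF-kappaB also acts on Nfkbia, for the NF-kappaB site. Each window is the 250 bases upstream of a start in RefSeq, build GRCm38.p6, written 5′ to 3′ along the gene. Capitals mark matches, on either strand, to the receptor's palindrome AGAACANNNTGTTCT, to its half-site AGAACA, which each arm of the palindrome also holds, and to the NF-kappaB motif GGGNNNTTCC. The Sgk1 window is the 1 of its 6 that held the palindrome, at chr10:21993640-21993889 on the plus strand. The Fkbp5 window is at chr17:28486150-28486399 and the Nfkbia window at chr12:55492648-55492897, both on the minus strand.
Sgk1: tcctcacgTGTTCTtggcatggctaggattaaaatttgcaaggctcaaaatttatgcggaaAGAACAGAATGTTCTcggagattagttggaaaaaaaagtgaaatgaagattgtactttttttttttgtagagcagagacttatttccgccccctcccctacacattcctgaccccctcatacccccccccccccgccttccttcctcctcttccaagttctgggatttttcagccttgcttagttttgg
Fkbp5: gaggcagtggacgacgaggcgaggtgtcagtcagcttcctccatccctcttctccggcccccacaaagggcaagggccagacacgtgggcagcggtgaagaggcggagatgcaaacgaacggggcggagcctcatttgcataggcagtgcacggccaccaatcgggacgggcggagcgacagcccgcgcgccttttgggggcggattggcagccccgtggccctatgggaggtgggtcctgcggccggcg
Nfkbia: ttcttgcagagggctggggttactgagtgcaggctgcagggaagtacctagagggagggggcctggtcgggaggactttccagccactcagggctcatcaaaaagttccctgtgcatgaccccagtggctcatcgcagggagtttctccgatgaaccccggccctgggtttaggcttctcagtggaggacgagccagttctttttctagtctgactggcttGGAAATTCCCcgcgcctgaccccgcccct
The Sgk1 palindrome, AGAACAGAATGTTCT, began 189 bases upstream of its own start and 965 bases upstream of the next annotated start of the gene. The same letters with any 3 middle bases were in 3 of 32851 windows of this length, or 0.00913%. The half-site alone was in 16.1% of windows, among them 3 of the 6 Sgk1 windows and none of those of Fkbp5, Klf9 and Nfkbia. The Nfkbia window held GGAAATTCCC, a match to the NF-kappaB motif on the opposite strand, 29 bases upstream of the start, and 4.65% of windows held such a match. The Fkbp5 window had no capitals, with 3 GC boxes (GGGCGG, in 32.7% of windows) and 2 CCAAT boxes (CCAAT, in 33.8% of windows), and the Klf9 window, with no match to the marked motifs, had 3 CCAAT boxes. These are matches of letters, and binding was not measured. Elements outside the 250 bases were not searched, so a window without a match does not show that a gene lacks one.

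The tissue label was checked on proximal tubule markers, of which 3 of 10 had a probe, and all 3 were above background. These were Lrp2, an endocytic receptor, Miox, an oxygenase of inositol breakdown, and Gatm, an enzyme of creatine synthesis. Each was above background in 12 of 12 measurements of the menopausal samples and in at least 11 of 12 of the control samples. Per channel and array, 16.5% to 76.8% of all spots were above background. The fit over all 7777 probes called none between the groups at an adjusted p of 0.05, which is 0% of the probes, while 387 had an unadjusted p under 0.05 (limma's moderated test). The smallest adjusted p was 0.921.

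Sgk1 had the widest spread of the 4 genes. Its level was -0.31, -0.14 and 1.25 in Menopausal 1, 2 and 3, against 0.43, -0.90 and -0.32 in Control 1, 2 and 3. Menopausal 3 was the highest sample, Control 2 the lowest, and the groups overlapped. Menopausal 3 stood 1.48 above the mean of Menopausal 1 and 2, a 2.78-fold difference, against a median size of that difference of 0.11 over all probes. It was 1 of 2 probes of the 7777 at or above that value.

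**Figure D1:**
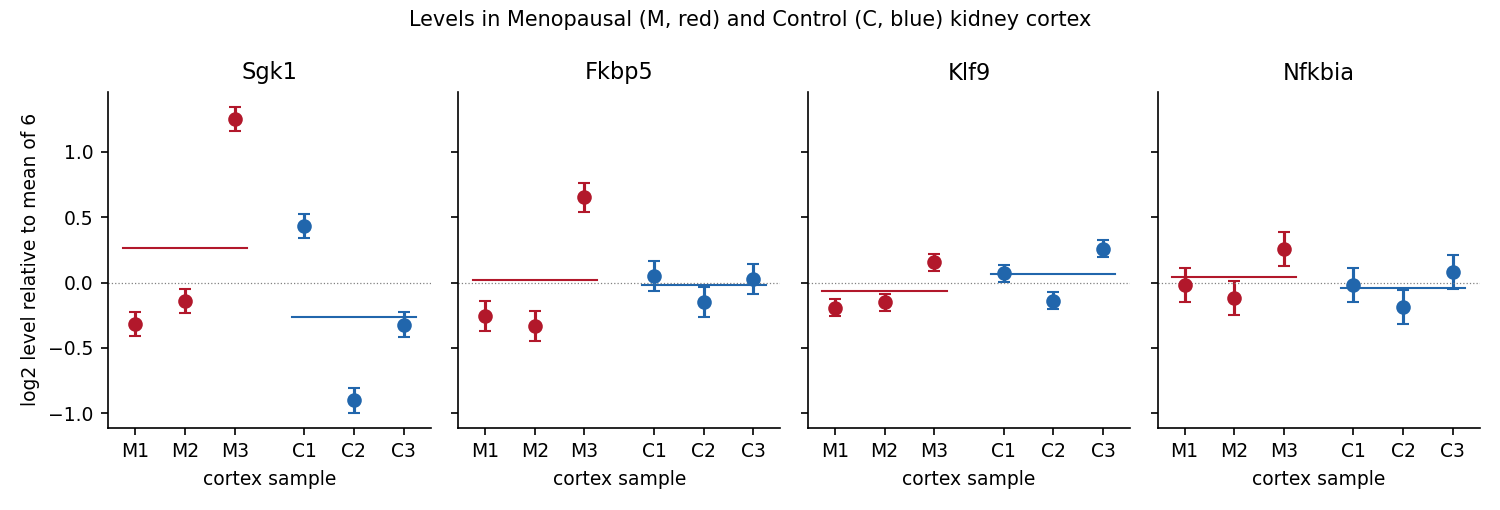
Log2 level of each gene relative to the mean of the 6 cortex samples (vertical axis) in Menopausal 1 to 3 (M1 to M3, red) and Control 1 to 3 (C1 to C3, blue). Points are samples, bars the technical standard error from the 12 arrays and horizontal lines group means. Sgk1 reaches 1.25 in Menopausal 3 and -0.90 in Control 2, Fkbp5 reaches 0.65 in Menopausal 3, and Klf9 and Nfkbia span less than 0.5.

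The order of the Sgk1 levels was Menopausal 3, Control 1, Menopausal 2, Menopausal 1, Control 3 and Control 2. The error of a difference between 2 samples was read from the spread of the 12 arrays around the fit. That spread was moderated by limma toward that of all probes, here and for the other genes. It gave a technical error with a 95% half-width of 0.31. This error leaves out the spread between samples, and the menopausal values chose the genes, so the half-width is given as the precision of a value and not as a test. The gaps were 0.81 between Menopausal 3 and Control 1, 0.58 between Control 1 and Menopausal 2 and 0.58 between Control 3 and Control 2. Menopausal 2, Menopausal 1 and Control 3 lay closer together than the half-width.

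Sgk1 averaged 0.26 ± 0.86 in menopausal samples and -0.26 ± 0.67 in control samples (SD, n = 3 each). The difference of 0.53 ± 0.44 (SE), 1.44-fold, did not pass limma's moderated test (adjusted p = 0.938). Without Menopausal 3 it was -0.029, so its direction rested on that sample.

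The control samples, whose values did not enter the choice of genes, also differed in Sgk1. They spanned 1.34, or 2.52-fold, against a median control range of 0.18 over all probes, and limma's moderated F test on the 12 arrays gave an adjusted p of 0.00309. This test called 102 of 7777 probes, 1.31%, and 1 of the 4 genes, and it measures whether the 3 samples differ beyond the error of the arrays. On the 4 arrays of Control 2, its Sgk1 ratio over the partner was -1.49 with Control 1, -0.49 with Control 3, -0.33 with Menopausal 1 and -2.34 with Menopausal 3. All were below 0, whichever dye Control 2 carried. The call was lost without any 1 of the control samples: limma's F test gave a range of 0.49 (adjusted p = 0.987) without Control 1, 0.67 (0.162) without Control 2 and 1.41 (0.16) without Control 3. The call held without any 1 of the menopausal samples, with limma adjusted p between 0.0119 and 0.0353. It was also lost without the array of Control 1 with Control 2 (range 1.21, adjusted p = 0.0541 in limma), without background correction (range 0.65, adjusted p = 0.227 in limma) and under global loess (1.02, adjusted p = 0.0533 in limma). Of 32 alternatives 22 kept it.

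The Sgk1 spots were bright, with 277.5 to 5733 intensity units above the local background in the 24 channel measurements, and the 2 copies differed by a median of 0.037. The largest gap between copies, 0.67, was on the array of Control 1 with Control 2, the array without which the call among controls was lost. The ratio of Menopausal 3 over its partner was 1.10 with Menopausal 2, 1.63 with Menopausal 1, 0.84 with Control 1 and 2.34 with Control 2. The higher Sgk1 level of Menopausal 3 was thus seen on each of its 4 arrays, 2 per dye.

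**Figure D2:**
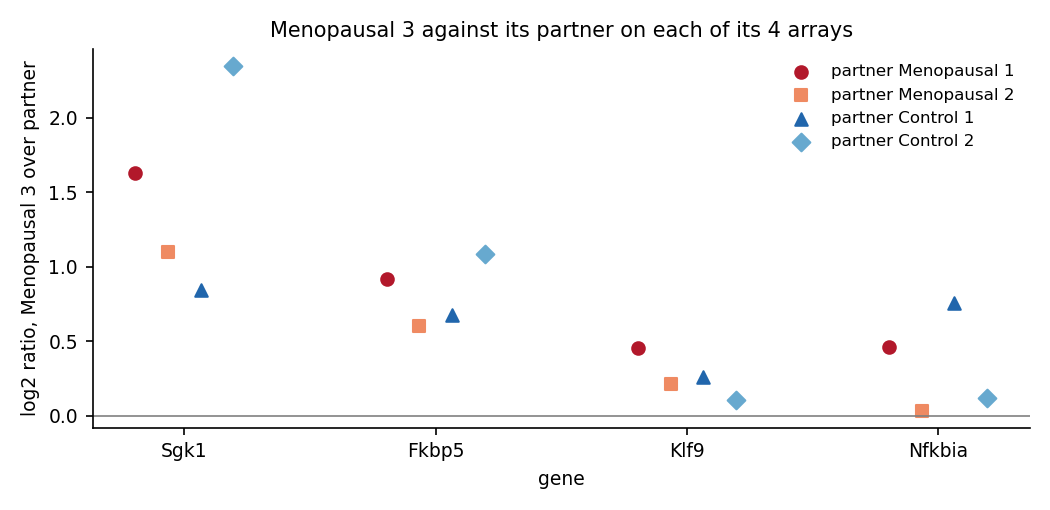
Log2 ratio of Menopausal 3 over its partner (vertical axis) on each of its 4 arrays, by gene, with the partners Menopausal 1, Menopausal 2, Control 1 and Control 2 as separate symbols. Ratios are before the dye term. All 16 ratios lie above 0, from 0.84 to 2.34 for Sgk1, 0.60 to 1.08 for Fkbp5, 0.10 to 0.45 for Klf9 and 0.034 to 0.76 for Nfkbia.

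Fkbp5 was also highest in Menopausal 3, with a narrower spread among the controls. Its level was -0.25, -0.33 and 0.65 in Menopausal 1, 2 and 3, against 0.05, -0.15 and 0.03 in Control 1, 2 and 3. Menopausal 3 was above every control sample and the other menopausal samples were below every control sample, so the groups overlapped around a near equal mean. Menopausal 3 exceeded the mean of Menopausal 1 and 2 by 0.94, or 1.92-fold, a difference that 8 probes of 7777 reached. The gap to the next sample, Control 1, was 0.60, with a technical half-width of 0.38, and all other neighbours in the order lay closer together than that half-width. The ratio of Menopausal 3 over its partner was 0.60 with Menopausal 2, 0.92 with Menopausal 1, 0.68 with Control 1 and 1.08 with Control 2, again above 0 on all 4 arrays. These ratios are before a dye term of -0.078.

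Fkbp5 averaged 0.022 ± 0.55 in menopausal samples and -0.022 ± 0.11 in control samples (SD, n = 3 each), a difference of 0.04 ± 0.23 (SE, limma adjusted p = 0.997). Without Menopausal 3 the difference was -0.37, and it was -0.097 without Control 2. The control samples spanned 0.20, and limma's F test over them gave an adjusted p of 0.825. The spots were dim, at 12 to 388.8 units above background, and exceeded it by the set margin in 6 of 12 menopausal and 5 of 12 control measurements, 4 of those 6 in Menopausal 3. The probe therefore passed the filter only through the menopausal group. The difference in Menopausal 3 was 0.17 without background correction and 2.28 with plain subtraction, against 0.84 and 1.55 for Sgk1 under the same alternatives, and the cause was not tested.

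Klf9 was highest in a control sample. Its level was -0.19, -0.15 and 0.15 in Menopausal 1, 2 and 3, against 0.07, -0.14 and 0.26 in Control 1, 2 and 3. Control 3 was highest and Menopausal 3 next, and all neighbours in the order lay closer together than the technical half-width, which was 0.22 for samples that met on an array and 0.24 for those that did not. Menopausal 3 stood 0.33 above the mean of Menopausal 1 and 2, a difference that 408 probes of 7777 reached. Its ratio over the partner was 0.21 with Menopausal 2, 0.45 with Menopausal 1, 0.26 with Control 1 and 0.10 with Control 2. These ratios are before the dye term of -0.145. After it they were 0.36, 0.31, 0.11 and 0.25 in the same order of partners.

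Klf9 averaged -0.063 ± 0.19 in menopausal samples and 0.063 ± 0.20 in control samples (SD, n = 3 each). The difference of -0.13 ± 0.13 (SE) did not pass limma's test (adjusted p = 0.946), and its sign was the same in all 35 alternatives run, from -0.28 to -0.043. The control samples spanned 0.40 (limma F, adjusted p = 0.185). On the array of Control 2 with Control 3 both channels lay below the local background, at -655.5 and -236.5 units, so that array carried little information on Klf9.

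Nfkbia had the largest technical error of the 4 genes. Its level was -0.018, -0.12 and 0.26 in Menopausal 1, 2 and 3, against -0.019, -0.19 and 0.08 in Control 1, 2 and 3. Menopausal 3 was highest and Control 2 lowest, as for Sgk1, but the half-width of 0.44 was wider than any gap between neighbours and than the whole menopausal range of 0.375. Menopausal 3 and Control 2, the ends of the order, differed by 0.446. The ratio of Menopausal 3 over its partner was 0.034 with Menopausal 2, 0.46 with Menopausal 1, 0.76 with Control 1 and 0.12 with Control 2. These ratios are before the dye term of -0.287, and Menopausal 3 carried Alexa Fluor 647 with Menopausal 2 and Control 2. After the dye term they were 0.32, 0.18, 0.47 and 0.41 in the same order of partners. The 2 copies differed by a median of 0.21, and on 2 of the 12 arrays both channels lay below the local background. Both were arrays of Control 2, with Control 3 and with Menopausal 1, so the low Control 2 value rested partly on spots without signal. Without the array of Control 2 with Menopausal 1 the control range fell from 0.27 to 0.079. The group difference was then -0.068.

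Nfkbia averaged 0.042 ± 0.19 in menopausal samples and -0.042 ± 0.14 in control samples (SD, n = 3 each). The difference of 0.08 ± 0.11 (SE, limma adjusted p = 0.963) turned negative without Menopausal 3 (-0.069) and without Control 2 (-0.11). Among controls limma's F test gave an adjusted p of 0.789. After global loess and without Menopausal 3, a combination chosen after seeing the data, the difference was -0.46 with a limma adjusted p of 0.0444. Over the 34 alternatives the adjusted p in limma ran from that value to 1.

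For none of the 4 genes did the menopausal and control samples separate, where 12.1% of all probes had groups that did not overlap. Menopausal 3 was the highest of the 6 samples for 3 of the 4 genes, against 25.4% of all probes, but the genes were chosen on these values and nothing is read from the share. Among the menopausal samples limma's F test called 29 probes, 0.373%, and those values chose the genes. The name glucocorticoid-responsive thus describes what the genes are known for: the values of Sgk1, Fkbp5 and Nfkbia were highest in Menopausal 3, and that of Klf9 was highest in Control 3.

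Other known glucocorticoid targets were read from a list of 43 genes, of which 17 had a probe and 14, the 4 included, were above background. None passed the test between groups. Of the 14, 6 were higher and 8 lower in menopausal samples, with a median of -0.022, against 2309 higher and 2173 lower of 4482 genes with a median of 0.0049. In Menopausal 3 against Menopausal 1 and 2, 10 were higher and 4 lower with a median of 0.29. Without the 4 chosen genes, 6 of 10 were higher with a median of 0.17. Over all genes 2285 of 4482 were higher, with a median of 0.0039.

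The 10 others were not of one kind. Txnip, an inhibitor of thioredoxin, had -0.069, -0.056 and 0.56 in Menopausal 1, 2 and 3, against -0.098, -0.32 and -0.021 in Control 1, 2 and 3. Its Menopausal 3 value stood 0.63 above the other menopausal samples, and its group difference was 0.29 ± 0.16 (SE, limma adjusted p = 0.921). Glul, glutamine synthetase, stood 0.40 higher in Menopausal 3 with a group difference of -0.066. Mt2, a metallothionein, was at -0.41 there relative to Menopausal 1 and 2, but at -0.088 at a second probe of similar brightness. Mt1, another metallothionein, was at -0.022. Rhob, a small GTPase, had a group difference of -0.19 ± 0.088 (SE, limma adjusted p = 0.921).

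**Figure D3:**
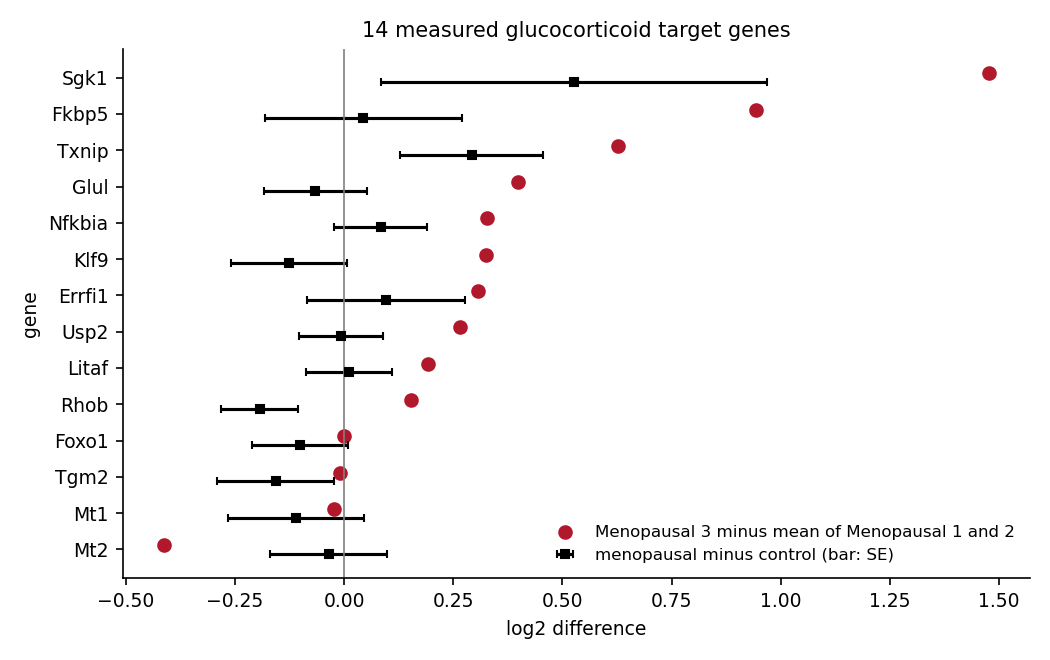
Log2 difference (horizontal axis) of Menopausal 3 minus the mean of Menopausal 1 and 2 (red circles) and of menopausal minus control samples (black squares, bars are SE) for the 14 glucocorticoid target genes above background. The red circles run from -0.41 for Mt2, at its brightest probe, to 1.48 for Sgk1. Of the 14, 10 lie above 0, the chosen genes among them. The group differences lie from -0.19 to 0.53.

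The receptor and its chaperones were read from a list of 21 genes for receptors, chaperones and steroid metabolism. Of these 14 had a probe, 9 were above background and none was called. Nr3c1, the glucocorticoid receptor, had 0.046, 0.078 and 0.089 in Menopausal 1, 2 and 3, against -0.059, -0.046 and -0.11 in Control 1, 2 and 3. These groups did not overlap, which held for 12.1% of all probes, and the difference was 0.14 ± 0.047 (SE, limma adjusted p = 0.921). Hspa8, a constitutive heat shock protein that loads the receptor onto its chaperone, stood 0.44 higher in Menopausal 3, and all 5 of its probes were higher there, by 0.35 to 0.73. Hsp90aa1, the chaperone that holds the receptor ready for hormone, stood 0.36 higher, with all 7 probes higher by 0.054 to 0.54. Over the 9 genes the Menopausal 3 difference had a median of 0.16, with 7 higher, where 2285 of all 4482 genes were higher.

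Of 29 genes on the Sgk1 kinase pathway and tubular sodium handling, 14 had a probe, 12 were above background and none was called. Ndrg1, a phosphorylation substrate of the Sgk1 kinase, stood 0.78 higher in Menopausal 3 than in Menopausal 1 and 2, with a group difference of 0.29 ± 0.19 (SE, limma adjusted p = 0.921). The Ndrg1 probe exceeded background in 9 of 12 menopausal and 5 of 12 control measurements, so it passed the filter only through the menopausal group. Slc9a3r1, a scaffold of the sodium-proton exchanger, had a group difference of 0.27 and Wnk1, a kinase upstream of sodium-chloride transport, a Menopausal 3 difference of 0.38. In Menopausal 3, 10 of the 12 were higher, with a median of 0.19, where 2285 of all 4482 genes were higher with a median of 0.0039. Usp2, a deubiquitinase, stands in this list and in the list of glucocorticoid targets.

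Genes related to Nfkbia and Klf9 were read in the same way, and none was called. Of 33 NF-kappaB genes 13 had a probe and 7 were above background, with a median Menopausal 3 difference of 0.013. Nkiras2, an inhibitor of NF-kappaB activation, had a group difference of -0.10 and a Menopausal 3 difference of 0.19, where its dimmer probe had -0.11. Nfkbiz, a nuclear IkappaB protein, had a group difference of -0.10, and Nkiras1 a Menopausal 3 difference of -0.14. Of 19 KLF and SP factors 8 had a probe and 7 were above background, with a median Menopausal 3 difference of 0.0053. Sp1, a factor that binds GC boxes, had a group difference of -0.43 ± 0.16 (SE, limma adjusted p = 0.921), which a second, dimmer Sp1 probe did not show (-0.031), and Klf6 one of 0.22. Klf4 had a Menopausal 3 difference of -0.34.

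Of 14 FKBP proteins 6 had a probe and 5 were above background, with a median Menopausal 3 difference of 0.11. Fkbp4, which competes with Fkbp5 in the receptor complex, had 0.27 at its brightest probe but was lower at 2 of its 3 probes, down to -0.18. Fkbp1a, the binding protein of the drug FK506, had a group difference of -0.19 and Fkbp3 one of 0.097.

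Clock genes and immediate early genes, many of which also respond to glucocorticoids, were read the same way. Of 19 clock genes 9 had a probe and 3 were above background. Arntl, the activator of the clock, stood 0.72 higher in Menopausal 3, and Nr1d2, a repressor of Arntl, stood at -0.84 relative to Menopausal 1 and 2. Their group differences were 0.22 and -0.39, and neither passed limma's test. The Arntl probe exceeded background in 9 of 12 menopausal and 4 of 12 control measurements, and so passed the filter only through the menopausal group. Tef, the third, had a Menopausal 3 difference of -0.071. Of 19 immediate early genes 9 had a probe and 7 were above background. Group differences were -0.22 for Jun and -0.18 for Atf3, and Menopausal 3 differences were 0.22 for Jun and -0.26 for Egr1. The Egr1 probe exceeded background in 5 of 12 menopausal and 6 of 12 control measurements, passing only through the control group.

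Markers of cell types were set beside these values. Gatm stood at -0.70 in Menopausal 3 relative to Menopausal 1 and 2, while Miox was at -0.17 and Lrp2 at 0.034, with 0.40 at a second, dimmer Lrp2 probe, and Podxl, a podocyte marker, was at 0.47. Of 5 red blood cell markers 2 were above background, Alas2, of heme synthesis, with a Menopausal 3 difference of -0.25, and Hbb-b1, a globin. Hbb-b1 had 0.72, 0.056 and -0.56 in Menopausal 1, 2 and 3, against -0.17, -0.77 and 0.73 in Control 1, 2 and 3. It was lowest in Control 2, the sample lowest in Sgk1, with Menopausal 3, the highest in Sgk1, next, and it differed among the controls (limma F, adjusted p = 0.00109). Of 7 adrenal cortex markers 4 had a probe and 2 were above background, Star and Hsd3b1. Star had 0.065, -0.17 and -0.028 in Menopausal 1, 2 and 3, against -0.0076, 0.17 and -0.022 in Control 1, 2 and 3. Hsd3b1 had -0.0092, 0.049 and 0.19 in Menopausal 1, 2 and 3, against 0.041, -0.30 and 0.022 in Control 1, 2 and 3. Hsd3b1 was thus highest in Menopausal 3 and lowest in Control 2, while Star was highest in Control 2. Immune cell markers had 3 of 8 above background and a median Menopausal 3 difference of 0.13, and Emcn, for endothelium, was at -0.068. Calb1, for the distal tubule, was at -0.10 at its brightest probe, but 3 of its 4 probes were above 0, up to 0.12. No marker of the thick ascending limb, fat or muscle was on the array. Of 9 collecting duct markers 1 had a probe, and it was not above background. The part of these cell types in the values of the 4 genes was not tested, and in whole cortex fewer cells of a type and less RNA per cell cannot be told apart.

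The genes most like each of the 4 over the 6 samples were named by Pearson's r among 927 or 928 probes of other genes with a range of at least 0.5. The r is a description, because the 6 values come from the same 12 arrays and sum to 0. Sgk1 was followed most closely by Frmd4b, a scaffold protein (r = 0.994), Cct8, a subunit of a chaperonin (0.972), Arpc2, of the actin-branching complex (0.968), Eif3e, of translation initiation (0.96), and Prxl2a (0.956). The Frmd4b range of 0.68 was narrower than the Sgk1 range from -0.90 to 1.25. For Fkbp5 they were Slc35a4 (0.967), Tmem131 (0.959), Gldc, of glycine breakdown (0.953), Osbpl9 (0.948) and the ribosomal protein gene Rpl7 (0.941). Gldc was at -0.27, -0.36 and 0.75 in Menopausal 1, 2 and 3, against 0.14, -0.43 and 0.17 in Control 1, 2 and 3.

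For Klf9 they were Akr1c14, a hydroxysteroid dehydrogenase (0.965), Lpl, lipoprotein lipase (0.914), 1 of the Hsp90aa1 probes (0.913), Gclc, of glutathione synthesis (0.892), and Jun (0.89). Akr1c14 was at -0.40, -0.22 and 0.42 in Menopausal 1, 2 and 3, against 0.21, -0.48 and 0.48 in Control 1, 2 and 3, wider than Klf9 itself. For Nfkbia they were Clk1, a splicing kinase (0.985), Wsb1 (0.974), Hsph1, a heat shock protein (0.962), Mtfr1l and Osbpl9 (both 0.956), the last of which is also near Fkbp5.

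The alternatives turned the sign of the group difference of 3 genes, but not that of the contrast within the menopausal group. Menopausal 3 stayed above the mean of Menopausal 1 and 2 in every alternative run, by 0.84 to 1.87 for Sgk1, 0.17 to 2.28 for Fkbp5, 0.15 to 0.93 for Klf9 and 0.059 to 0.89 for Nfkbia. The menopausal values chose the genes and the alternatives reuse the same arrays, so this steady sign is a description and not support. The sign of the group difference turned in 2 of 35 alternatives for Sgk1, 8 of 34 for Fkbp5 and 9 of 34 for Nfkbia.

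**Figure D4:**
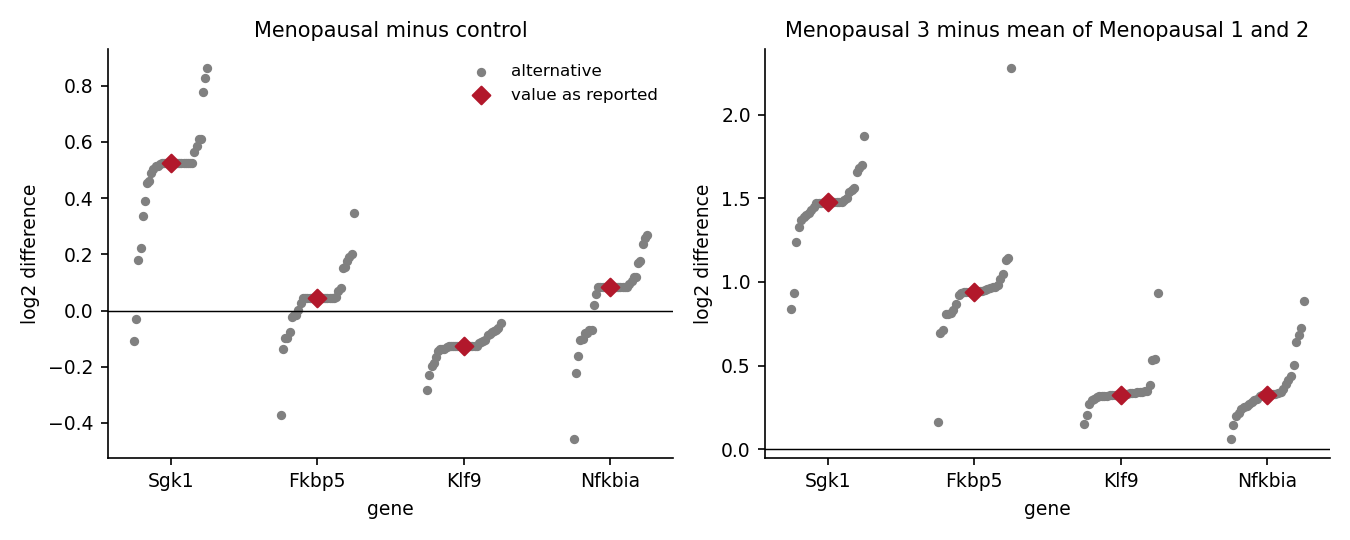
Log2 difference (vertical axis) of menopausal minus control samples (left) and of Menopausal 3 minus the mean of Menopausal 1 and 2 (right) for each gene, as reported (red diamonds) and under each alternative, sorted (grey points). On the left the points of Sgk1, Fkbp5 and Nfkbia cross 0 and those of Klf9 lie from -0.28 to -0.043; on the right all points lie above 0, with Fkbp5 reaching 2.28 under plain background subtraction.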

How the data were processed

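RNA of 6 kidney cortex samples was measured on 12 arrays, after amplification and coupling to Alexa Fluor dyes, per the labels. The authors deposited raw spot intensity and local background intensity for both channels, per the file headers. The sources used here name neither the image software nor a gene build. The deposited table of log2 ratios, with column medians of -0.072 to 0.10, was not used for results. Compared with the scanner tables, 0 of its 12 columns correlated best with the array it is labelled as. Each correlated best, negatively, with another one (size of r 0.503 to 0.789). How the deposited ratios were scaled and centred, and their direction, are unknown. Which labels are right is unresolved, so every sample assignment here, those of Menopausal 3 and Control 2 included, depends on the scanner tables being labelled correctly.

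Probe order was read by a layout chosen from the data, in which 163 probes of ribosomal proteins lay on average at brightness percentile 88.2, while no other of 64 layouts exceeded 57.8. Every gene name rests on it. Of 15600 probes 9191 had 1 symbol, 254 several and 6155 were unnamed here. Gene identifiers gave newer symbols for 9085 probes.

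In limma 3.58.1 under R 4.3.3, spot medians were corrected by normexp (offset 50), log2 ratios (Alexa Fluor 647 over 546) were normalized by print-tip loess, spots marked abnormal had weight 0, and the 2 copies were averaged. Print-tip loess was chosen because block position held 0.318 of the variance of the group difference after global loess and 0.00498 after print-tip loess. A probe was kept if it exceeded its background by 2 background SDs in at least 6 of the 12 measurements of a group. Least squares with a dye term gave 6 sample values. Groups were compared with limma's moderated test with an intensity trend, and samples within a group with its moderated F on the 12 arrays (6 residual degrees of freedom, a technical error), both with Benjamini-Hochberg adjustment over all kept probes at 0.05. Where a left-out sample left a pair in a group, limma's moderated t-test took the place of the F for that group. A gene is represented by its brightest kept probe. The number of arrays limits the precision.

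The genes, lists and tests were chosen with earlier results of these data known. Of each list, up to 2 genes with the largest group difference and up to 2 with the largest Menopausal 3 difference are named, others for their role, and for likeness the 5 genes with the highest r. Whether sample numbers pair the groups is not known, and the groups were compared unpaired. Deviations of same-numbered samples correlated at -0.356, -0.515 and -0.115. Same-numbered samples of the 2 groups never met on an array, so the error of the arrays enters these correlations and they cannot decide it. Alternatives covered background, normalization, filter, weights, dye term, samples and arrays left out and the replicate block. Scan names carried a repeat mark on 4 arrays, all within groups, and alternatives for it, as for global loess with a sample left out, were added after seeing the data.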

Additional observations from a re-analysis of the deposited data

How the results depend on the processing

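Probes called between groups stayed at 0 under every alternative (limma, range without 1 sample or array 0 to 0) except 6 with the 12 arrays taken as replicates and 126 with global loess without Menopausal 3. With the replicate block 0 were called, the Sgk1 difference was 0.53 (limma adjusted p = 1) and no call changed. Among controls, 102 probes became 59 with plain background subtraction, 28 without correction, 479 with an own dye term for the repeat-marked arrays, 42 on the 8 unmarked arrays, and 38 and 30 with global loess without Menopausal 3 and without Control 2; leaving out 1 sample or array gave 0 to 113. Among menopausal samples, 29 became 11 with global loess, 120 with median centring, 3 with plain subtraction, 0 without correction, 0 with scaling between arrays, 19 without a filter, 144 with the own dye term, and 0 and 7 with global loess without Menopausal 3 and without Control 2; leaving out 1 sample or array gave 0 to 31. The cause of these moves was not tested.

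The Sgk1 control range lost its call at 1.02 (global loess), 1.06 (median centring), 0.65 (no correction), 1.14 (8 unmarked arrays), and 0.975 and 0.19 (global loess without Menopausal 3 and without Control 2); without 1 sample or array it ran from 0.49 to 1.42. The Sgk1 group difference turned to -0.029 without Menopausal 3 and to -0.11 with global loess as well, and without 1 sample or array it ran from -0.029 to 0.86. That of Fkbp5 turned to -0.096 (plain subtraction), -0.021 (scaling), -0.015 (spot mean) and -0.14 (global loess without Menopausal 3), and without 1 sample or array it ran from -0.37 to 0.35. That of Nfkbia turned to -0.099 (global loess), -0.16 (median centring), -0.080 (plain subtraction), -0.080 (no correction), -0.46 and -0.22 (global loess without Menopausal 3 and without Control 2), and without 1 sample or array it ran from -0.11 to 0.26. The stricter filter removed Fkbp5 and Nfkbia. The median of the glucocorticoid list, -0.022, ran from -0.13 to 0.032. Spots below or near the local background limit the Fkbp5 and Nfkbia values.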
